A study of Homo sapiens with 2 samples.

Results

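The genes encoding the proteasome and its regulators were described in the human lung adenocarcinoma line A549, in 1 library of cells overexpressing plakophilin 2 (PKP2) with an SFB tag and 1 library of cells carrying the vector. A549 is an established cell line, and both cultures were at passage 5 and grown in DMEM with serum. The gene set was defined by name, as every symbol made of PSMA, PSMB, PSMC, PSMD, PSME, PSMF or PSMG and a number. This rule, set with earlier results of these data known, gave 46 of the 16399 genes with a value in the files. PSMA8, the testis form of an alpha subunit, and PSMB11, the thymus form of a beta subunit, were not analysed here. All 46 genes were expressed, at 1 CPM (count per 1000000 counts of the library) or more in at least 1 library, and all averaged at least 5 CPM. With 1 library per condition no difference has a replicate check and no p-value can be given, so what follows compares 2 libraries rather than 2 conditions. In RNA of whole cultures, fewer cells of a type and less RNA per cell cannot be told apart.

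The 26S proteasome degrades proteins that carry ubiquitin chains. Its barrel-shaped core, the 20S particle, stacks rings of alpha subunits (PSMA genes), which gate the entry, on rings of beta subunits (PSMB genes), of which PSMB5, PSMB6 and PSMB7 carry the proteolytic sites. The 19S cap has a base with an ATPase ring (PSMC genes), which unfolds substrates, and a lid of PSMD genes, which removes ubiquitin. Interferon induces an alternative form, the immunoproteasome, in which PSMB8, PSMB9 and PSMB10 replace the catalytic subunits and the PSME1 and PSME2 ring can cap the core, a form that favours peptides for class I antigen presentation. The factor NFE2L1 raises transcription of proteasome genes when proteasome activity falls short.

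The libraries held 16808842 estimated counts for PKP2 and 16996976 for vector. PKP2 itself had 268 CPM in the PKP2 library, against 27.3 CPM in the vector library, a ratio of 9.82 with a 95% counting interval of 8.92 to 10.8, on the side of the labels. The keratins KRT8 and KRT18 were abundant in both libraries, at 5416 and 3849 CPM in the PKP2 library and at 5339 and 3875 CPM in the vector library, while the epithelial adhesion gene EPCAM was at 1.37 CPM in the PKP2 library and 1.47 CPM in the vector library. CDH1 was lower in the PKP2 library, at 55.0 CPM against 63.2 CPM in the vector library. AKR1B10 was lower too, at 2896 against 3312 CPM, and AKR1C1 had 455.0 against 442.5 CPM, both on fractional counts. These 6 epithelial and A549 markers summed to 12673 CPM in the PKP2 library and 13032 CPM in the vector library. Leukocytes are rich in immunoproteasomes, and of 8 leukocyte markers only LST1 and CD74 had a value, together 0.297 CPM in the PKP2 library and 0.0588 CPM in the vector library, with CD74 at 0 in the vector library. Of 6 fibroblast markers 4 had a value, summing to 11.7 CPM in the PKP2 library and 9.53 CPM in the vector library. Most of each sum was COL1A1, at 10.4 CPM in the PKP2 library and 8.12 CPM in the vector library. The part of these markers in the results was not tested.

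Proteasome genes were mostly slightly higher in the PKP2 library, and none differed by much. Of the 46 genes 40 were higher and 6 lower, against 49.7% of all 12820 expressed genes higher and 50.3% lower. Their median difference in log2(CPM + 1), PKP2 minus vector, was 0.13, with a range of -0.26 to 0.35, and that of all expressed genes was 0.00. Short transcripts tended to be higher in the PKP2 library among all expressed genes too. Once a trend on length and GC content was removed, 27 members were higher and 19 lower. None was 1.5-fold higher or lower, a step that 0.733% and 0.788% of expressed genes passed. A smaller step, 1.2-fold, was passed by 6 genes that were higher, against 8.70% of expressed genes, and by none that were lower, against 11.0%. The 6 were PSMB8, PSMB10, PSME1, PSME2, PSMG4 and PSMA3, so 4 of them belong to the immunoproteasome. With the trend removed PSMG4 alone passed the step, and with the trend fitted on principal transcripts 0 members did, so the calls of the 4 immunoproteasome genes ended. PSMA3 at 0.27 was the member just inside the step, and PSMG2 at 0.25 the one just outside it.

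Counted together, the transcripts of the 46 genes summed to 7089 CPM in the PKP2 library (0.709% of its counts), against 6662 CPM in the vector library (0.666%), a ratio of 1.06 with a counting interval of 1.06 to 1.07. The interval of the single gene lay above 1 for 30 members, below 1 for 3 and included 1 for 13. Among all expressed genes 16.3% lay above and 19.8% below. Most proteasome genes are abundant, which narrows the interval. At a mean level of at least 50 CPM there were 38 members, of which 32 were higher and 6 lower, against 47.4% and 52.6% of the 4431 genes at that level. Of these 38, 23 had an interval above 1, against 26.1%, and 3 below 1, against 32.4%. The 1.2-fold step was passed by 3 of them that were higher and none that were lower, against 3.75% and 9.25%, and the 1.5-fold step by none, against 0.0903% and 0.226%. The intervals cover counting error only and not the spread between cultures.

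**Figure D1:**
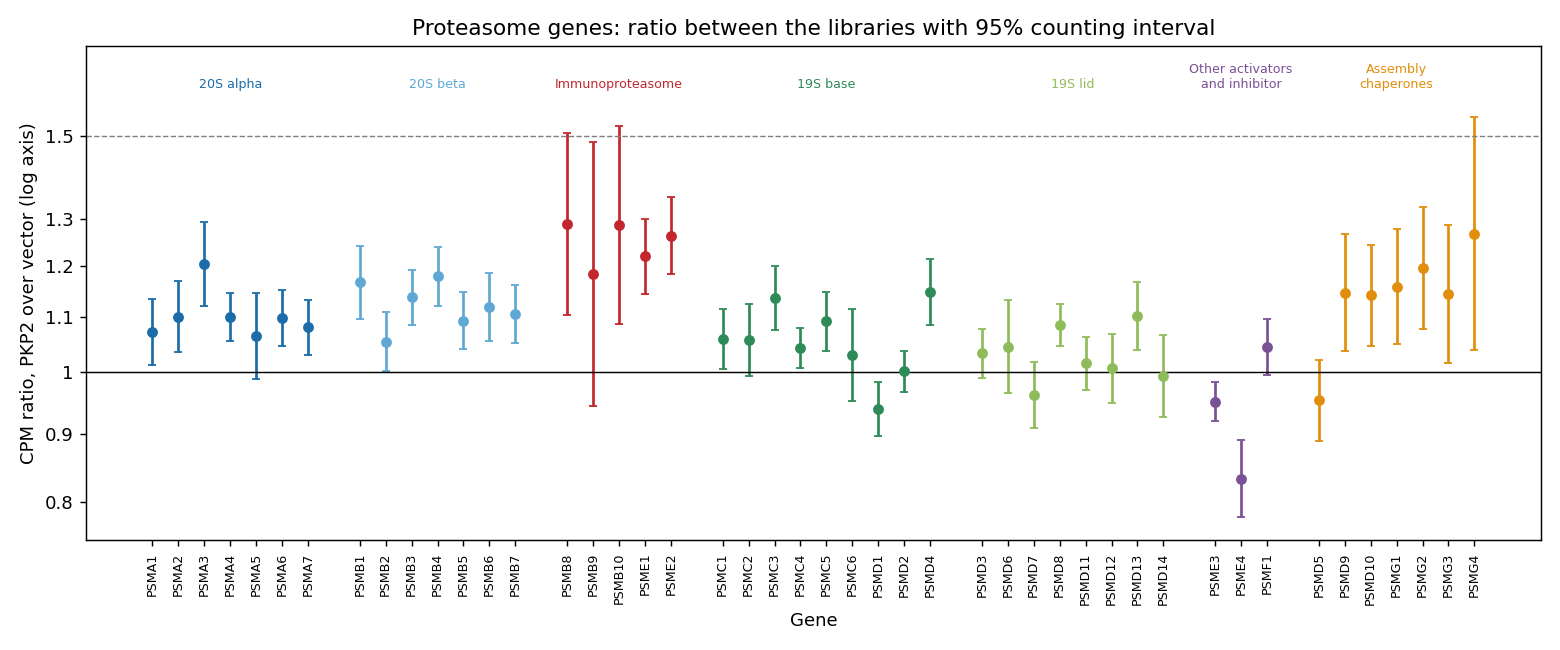
Each point is the ratio of CPM in the PKP2 library over the vector library for 1 gene, on a log axis, with its exact 95% counting interval, and the colours mark the classes. The 14 constitutive core subunits all lie above 1, the 5 immunoproteasome genes lie at 1.18 to 1.29, and PSME4 is the lowest point at 0.833.

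The 7 constitutive alpha subunits were all higher in the PKP2 library, by a median of 0.13 on the log2 scale. PSMA3, an alpha subunit of the gate ring, had 98.4 CPM in the PKP2 library and 81.7 CPM in the vector library, the widest difference of the class, with a ratio of 1.204 (1.12 to 1.29). PSMA5, with 87.5 CPM in the PKP2 library and 82.2 CPM in the vector library, had the narrowest, and its interval of 0.988 to 1.15 included 1. PSMA1, PSMA2, PSMA4, PSMA6 and PSMA7 had ratios from 1.07 to 1.10. The class summed to 1179 CPM in the PKP2 library and 1074 CPM in the vector library, a ratio of 1.10 (1.08 to 1.12).

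The 7 constitutive beta subunits were all higher too, each with an interval above 1, and their median difference was 0.16. With a trend on transcript length and GC content removed 3 stayed higher and the median was -0.02. PSMB5, the chymotrypsin-like subunit and the main target of the drug bortezomib, had 200.5 CPM in the PKP2 library and 183.6 CPM in the vector library, a ratio of 1.09 (1.04 to 1.15). PSMB6, the caspase-like subunit, had 144.9 CPM in the PKP2 library and 129.6 CPM in the vector library, a ratio of 1.12 (1.05 to 1.18). PSMB7, the trypsin-like subunit, had 192.7 CPM in the PKP2 library and 174.4 CPM in the vector library, a ratio of 1.105 (1.05 to 1.16). These ratios lay inside the range of the 4 non-catalytic subunits, 1.05 to 1.18. PSMB4, a non-catalytic subunit, was the highest of the class with 195.0 CPM in the PKP2 library and 165.4 CPM in the vector library, at 1.18 (1.12 to 1.24), and PSMB2 the lowest with 185.3 CPM in the PKP2 library and 175.9 CPM in the vector library, at 1.05 (1.00 to 1.11). The summed ratio of the class was 1.12 (1.10 to 1.14).

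The immunoproteasome genes had the highest median of the classes, 0.33 on the log2 scale and 0.14 with the same trend removed, and all 5 were higher in the PKP2 library. Gene spans are from GENCODE release 29 on GRCh38. PSMB8 (Entrez ID 5696, chr6:32840717-32844703, minus strand), which takes the place of PSMB5, had 22.1 CPM from 372 counts in the PKP2 library, against 17.2 CPM from 292 counts in the vector library, a ratio of 1.29 (1.10 to 1.51). PSMB10 (Entrez ID 5699, chr16:67934502-67937087, minus strand), which takes the place of PSMB7, had 18.9 CPM in the PKP2 library and 14.7 CPM in the vector library, a ratio of 1.29 (1.09 to 1.52). PSMB9 (Entrez ID 5698, chr6:32844136-32859585, plus strand), which takes the place of PSMB6, had 10.2 CPM from 172 counts in the PKP2 library and 8.65 CPM from 147 counts in the vector library, and its interval of 0.944 to 1.48 included 1, so no difference was detectable at this depth. The activator subunits were more abundant per kb of transcript, at 109.1 CPM per kb for PSME1 and 86.7 for PSME2 in the PKP2 library, where the 3 catalytic genes had 12.9 to 16.4. PSME1 (Entrez ID 5720, chr14:24136158-24138967, plus strand) had 123.9 CPM in the PKP2 library and 101.6 CPM in the vector library, a ratio of 1.22 (1.14 to 1.30), and its ring partner PSME2 (Entrez ID 5721, chr14:24143362-24147570, minus strand) had 121.7 CPM in the PKP2 library and 96.3 CPM in the vector library, a ratio of 1.26 (1.18 to 1.35). Summed over the class the ratio was 1.25 (1.19 to 1.30), and this interval lay above those of the other 6 classes.

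The exchange of catalytic subunits can be read as the share of the immuno form in each pair, per kb of the longest protein-coding transcript. PSMB8 made up 9.56% of the PSMB8 and PSMB5 pair in the PKP2 library (exact binomial interval 8.65 to 10.5) and 8.22% in the vector library (7.34 to 9.18). PSMB10 made up 7.32% of its pair with PSMB7 in the PKP2 library (6.56 to 8.14) and 6.36% in the vector library (5.61 to 7.17). PSMB9 made up 7.21% of its pair with PSMB6 in the PKP2 library (6.21 to 8.32) and 6.84% in the vector library (5.81 to 7.98). The intervals of the libraries overlapped in all 3 pairs, and the constitutive form was 9.46 to 14.7 times as abundant per kb in either library. For the activators the balance differed more. PSME1 made up 48.8% of PSME1 and PSME3 per kb in the PKP2 library (47.6 to 50.1) and 42.6% in the vector library (41.3 to 43.9), where PSME3 forms the nuclear homologue of the PSME1 and PSME2 ring. These shares rest on the longest PSME3 transcript, and from plain counts PSME1 made up 24.4% in the PKP2 library and 20.1% in the vector library. Per kb of the principal transcript, which is 998 nucleotides for PSME3 instead of 3366, PSME1 had 123.2 CPM per kb in the PKP2 library and 101.0 in the vector library, and PSME3 had 385.7 in the PKP2 library and 405.7 in the vector library. The share of PSME1 was higher in the PKP2 library by either measure.

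PSME1 and PSME2 lie on chromosome 14 in opposite orientation, 4394 bases apart, and PSMB8 and PSMB9 lie in the class II region of chromosome 6 on opposite strands, overlapping by 568 bases. TAP1, the peptide transporter gene beside PSMB9, had 52.1 CPM in the PKP2 library and 49.8 CPM in the vector library. Whether the counting used strand is not given in the sources used here, so reads of overlapping genes on opposite strands, which 24 of the 46 members have, cannot be told apart. RefSeq also lists 52 pseudogenes of 21 members, 13 of PSMC1 and 6 of PSME2 among them, and the counts of these genes are uncertain to that extent.

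The bases before the transcription start of the 4 immunoproteasome genes past the 1.2-fold step are shown to let the promoters be compared, from the RefSeq table on GRCh38.p14, 5′ to 3′ on the gene's strand and 250 bases long. Capitals mark matches to the interferon-stimulated response element (ISRE) as TTTC, any 2 bases and TTTC, or its reverse complement with GAAA, and to the antioxidant response element as TGACNNNGC or its reverse complement GCNNNGTCA, the kind of site through which NFE2L1 acts. The windows are chr6:32844680-32844929, minus strand, for PSMB8, chr16:67936851-67937100, minus strand, for PSMB10, chr14:24135944-24136193, plus strand, for PSME1, and chr14:24146611-24146860, minus strand, for PSME2.
PSMB8: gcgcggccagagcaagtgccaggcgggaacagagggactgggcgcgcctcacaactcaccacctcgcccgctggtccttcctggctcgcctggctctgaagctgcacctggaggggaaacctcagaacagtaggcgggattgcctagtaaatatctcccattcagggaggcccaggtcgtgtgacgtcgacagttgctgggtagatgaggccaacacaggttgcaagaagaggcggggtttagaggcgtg
PSMB10: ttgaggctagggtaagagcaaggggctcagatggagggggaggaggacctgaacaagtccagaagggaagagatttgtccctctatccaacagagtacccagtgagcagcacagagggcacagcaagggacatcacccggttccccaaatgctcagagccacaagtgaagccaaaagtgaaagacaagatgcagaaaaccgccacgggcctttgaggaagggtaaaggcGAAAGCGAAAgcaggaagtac
PSME1: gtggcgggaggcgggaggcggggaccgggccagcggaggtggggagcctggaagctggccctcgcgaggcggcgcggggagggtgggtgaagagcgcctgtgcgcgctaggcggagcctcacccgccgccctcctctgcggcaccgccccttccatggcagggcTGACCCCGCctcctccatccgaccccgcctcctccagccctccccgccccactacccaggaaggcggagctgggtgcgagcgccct
PSME2: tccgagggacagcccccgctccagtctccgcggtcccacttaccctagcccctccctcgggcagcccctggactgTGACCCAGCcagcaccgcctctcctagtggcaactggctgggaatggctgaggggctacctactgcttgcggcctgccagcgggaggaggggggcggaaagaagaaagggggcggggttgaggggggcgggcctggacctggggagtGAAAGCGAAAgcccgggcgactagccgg

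An ISRE match was present in the window from 250 bases before to 50 after the start in 6 of the 40 members with a promoter in the table, among them 3 of the 5 immunoproteasome genes and 3 of the 35 other members. A match is held by 3.65% of all 27305 promoters listed there, and by 2.70% of those of expressed genes. The sites are shown with their flanks so that their letters can be set side by side, with the match in capitals, and that of PSME1 lies after the start and is therefore missing from the stretch above. They lie at chr16:67936852-67936881, minus strand, for PSMB10, chr14:24136189-24136218, plus strand, for PSME1, chr14:24146619-24146648, minus strand, for PSME2, chr6:3258904-3258933, plus strand, for PSMG4, chr1:151399495-151399524, plus strand, for PSMB4 and chr15:78540155-78540184, plus strand, for PSMA4.
PSMB10: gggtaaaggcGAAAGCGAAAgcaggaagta
PSME1: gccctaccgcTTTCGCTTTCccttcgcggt
PSME2: cctggggagtGAAAGCGAAAgcccgggcga
PSMG4: ttccggggccGAAAGCGAAAgcgcgctcgg
PSMB4: tcgtctacagGAAAAAGAAAgaaatgacac
PSMA4: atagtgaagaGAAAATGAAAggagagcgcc

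PSMB10, PSME2 and PSMG4 share the same 10 letters, PSME1 holds their reverse complement, and the match begins 21 bases before the start in PSMB10, 28 in PSME2 and 33 in PSMG4. These 4 genes were among the 6 past the 1.2-fold step, whereas PSMB4 and PSMA4, with other letters between the fixed ones, were not, and PSMB8 passed it with no match. With the length and GC trend removed that contrast did not hold, since PSMA4 lay at 0.22, above PSMB10 at 0.14, PSME1 at 0.11 and PSME2 at 0.16, and only PSMG4 was past the step, at 0.34, which became 0.12 with its principal transcript. Matches to TTCNNNGAA, the letters of an interferon-gamma activated site, were found in 4 of the 40 members and none of the 5 immunoproteasome genes, against 7.88% of all promoters. The antioxidant motif was found in 13 of 40 members, against 13.6% of all promoters and 15.0% of those of expressed genes. Of the 13, 3 were immunoproteasome genes and 4 assembly chaperones. CCAAT, the letters bound by NF-Y, was found in 18 of 40, against 35.7% of all promoters. Both strands were searched and overlaps between motifs were kept, and a match is a description of the letters and not a bound site.

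The base of the 19S cap was slightly higher in the PKP2 library, with 8 of 9 genes higher and a median difference of 0.08. The 6 ATPases were all higher, with ratios from 1.03 to 1.14 and intervals above 1 for 4 of them. PSMC3 was the highest ATPase with 162.6 CPM in the PKP2 library and 143.2 CPM in the vector library, at 1.14 (1.07 to 1.1997), and PSMC6 the lowest with 75.7 CPM in the PKP2 library and 73.5 CPM in the vector library, at 1.03 (0.952 to 1.11). PSMC2 is the 1 member with a fractional count, at 2107.5 in the PKP2 library and 2017.99 in the vector library. PSMD4, a ubiquitin receptor, was the highest gene of the base with 154.8 CPM in the PKP2 library and 134.9 CPM in the vector library, at 1.15 (1.08 to 1.21). PSMD1, a scaffold subunit, was the lowest with 204.7 CPM in the PKP2 library and 218.1 CPM in the vector library, 1.07-fold lower (1.02 to 1.12). PSMD2, the other large scaffold, had 363.1 CPM in the PKP2 library and 362.6 CPM in the vector library, a ratio of 1.00 (0.966 to 1.04).

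The lid was closest to level of the 19S and 20S classes, with a median difference of 0.03 and intervals that included 1 for 6 of its 8 genes. PSMD14, the deubiquitinase of the lid, had 92.6 CPM in the PKP2 library and 93.2 CPM in the vector library, a ratio of 0.993 (0.926 to 1.07). PSMD13, a structural lid subunit, was the highest with 142.1 CPM in the PKP2 library and 129.1 CPM in the vector library, at 1.10 (1.04 to 1.17), and PSMD8, the lid gene with the highest level per kb, was the other with an interval above 1, at 1.08 (1.05 to 1.12). PSMD7, the structural partner of PSMD14, was the lowest with 138.9 CPM in the PKP2 library and 144.4 CPM in the vector library, a ratio of 0.961 (0.908 to 1.02). PSMD3, PSMD6, PSMD11 and PSMD12 had ratios from 1.01 to 1.04. Summed ratios were 1.04 for the lid (1.02 to 1.06) and 1.04 for the base (1.03 to 1.06).

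The other activators and the inhibitor were the class below 1, with a summed ratio of 0.958 (0.933 to 0.982). PSME4, which encodes the large single-chain activator PA200, had 97.0 CPM in the PKP2 library and 116.5 CPM in the vector library, a ratio of 0.833 (0.780 to 0.890), and on the log2(CPM + 1) scale it was just short of the 1.2-fold step. PSME3 had 384.9 CPM in the PKP2 library and 404.9 CPM in the vector library, 1.05-fold lower (1.02 to 1.09). PSMF1, an inhibitor of the core, had 207.8 CPM in the PKP2 library and 199.0 CPM in the vector library, a ratio of 1.04 (0.996 to 1.10). PSME1 and PSME2 were thus higher in the PKP2 library while the other activator genes PSME3 and PSME4 were lower, each with an interval that left out 1.

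Assembly chaperones, which help the rings form and leave the finished particle, had the next highest median after the immunoproteasome, 0.19. PSMG1 and PSMG2, the pair that guides the alpha ring, had similar ratios. PSMG1 had 51.7 CPM in the PKP2 library and 44.7 CPM in the vector library, at 1.16 (1.05 to 1.28), and PSMG2 had 46.6 CPM in the PKP2 library and 38.9 CPM in the vector library, at 1.196 (1.08 to 1.33). PSMG4, of the other early core chaperone pair, was the highest of the class at 13.5 CPM in the PKP2 library and 10.6 CPM in the vector library, a ratio of 1.27 (1.04 to 1.55), and its partner PSMG3 had 1.14 (1.02 to 1.29). Of the base chaperones PSMD9 had a ratio of 1.15 (1.04 to 1.27) and PSMD10, also called gankyrin, of 1.14 (1.05 to 1.24). PSMD5, another base chaperone, was the lowest with 93.3 CPM in the PKP2 library and 98.0 CPM in the vector library, and its interval included 1.

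The difference followed transcript length in these genes as it did in all genes. Across the 46 members, which are not replicates, Spearman's rho between the difference and the length of the longest protein-coding transcript was -0.58, and across 12670 expressed genes it was -0.49. Genes averaging at least 5 CPM were divided by length into 5 bins of nearly equal size. In the bin of the shortest, up to 2038 nucleotides, the 28 members had a median difference of 0.17, against 0.14 for all 2163 genes there. The 4 members of the next bin had 0.12 against 0.05, the 7 of the middle bin 0.00 against -0.02 and the 6 of the following one 0.08 against -0.08. PSME4, at 7099 nucleotides the longest, was the 1 member in the last bin and lay at -0.26, against -0.17 for the genes there. The immunoproteasome genes are short, at 792 to 1404 nucleotides, and had a median GC content of 55.3%, against 49.5% over all members.

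**Figure D2:**
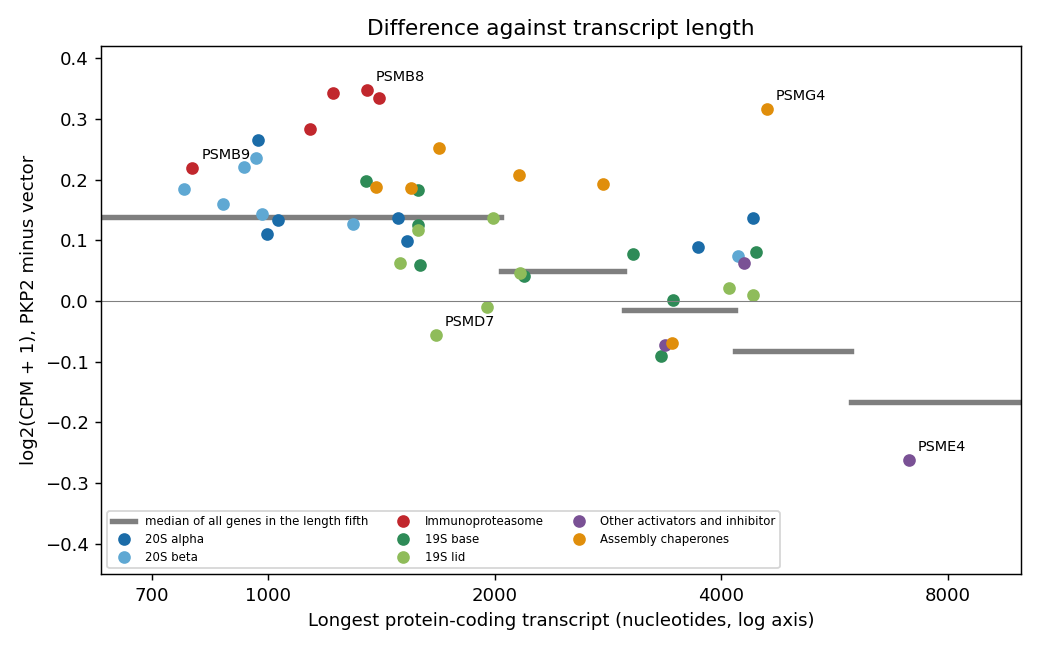
The y axis is the difference in log2(CPM + 1), PKP2 minus vector, and the x axis the length of the longest protein-coding transcript on a log axis, with a point for each proteasome gene and a grey bar for the median of all genes averaging at least 5 CPM in each length bin (bars are cut at the plot edges). The bars step down from 0.14 to -0.17, most points lie around or above them, and PSMB8 and PSMG4 stand farther above than most.

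With an additive trend on length and GC content removed, the 27 higher and 19 lower members stood against 45.7% and 54.3% of the 12670 genes with a length, and the median was 0.04, against -0.02 over all of these. The immunoproteasome still had the highest class median, at 0.14. PSMB8 then lay at 0.18, PSME2 at 0.16, PSMB10 at 0.14, PSME1 at 0.11 and PSMB9 at -0.01. The assembly chaperones were next at 0.13, with 6 of 7 higher. PSMG4 lay at 0.34, but at 0.12 with the length of its principal transcript, 838 nucleotides instead of 4603. The alpha subunits were at 0.08 and the base at 0.03, while the beta subunits, at -0.02, and the lid, at -0.03, changed sign. PSME4 stayed lower at -0.10 and PSME3 at -0.08, or at -0.23 with its principal transcript.

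**Figure D3:**
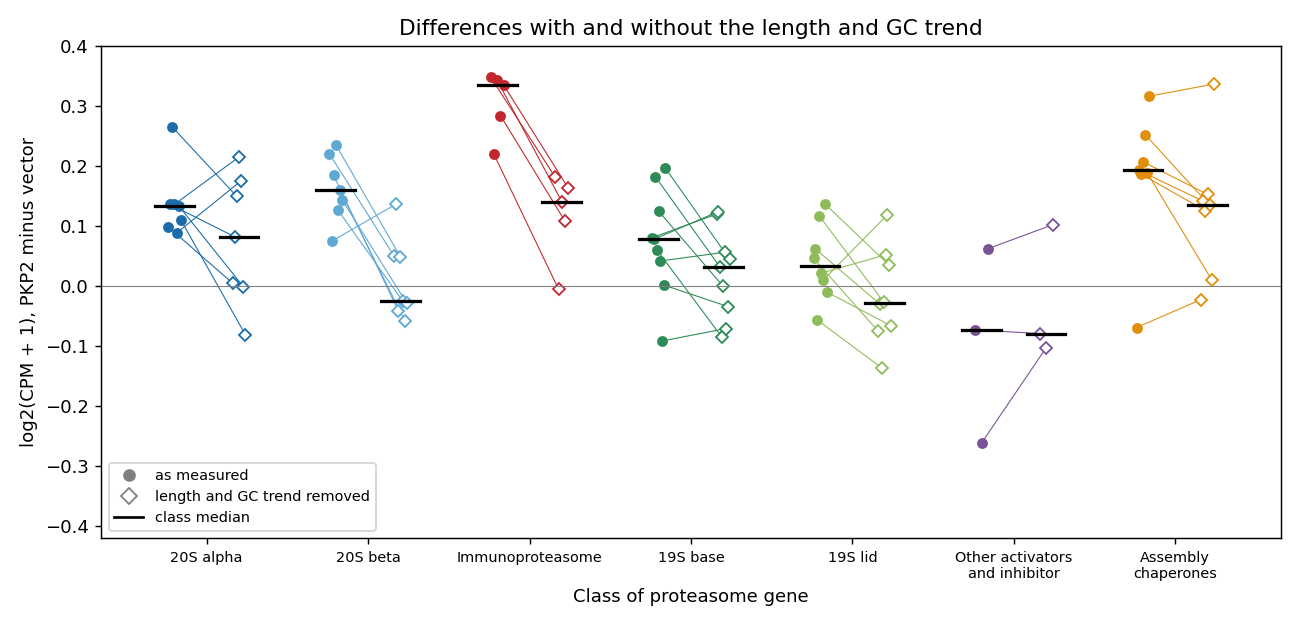
Each gene has a filled circle for its difference in log2(CPM + 1), PKP2 minus vector, as measured, joined to an open diamond for the value after removal of the length and GC trend, and black bars are class medians. The immunoproteasome bar moves from 0.33 to 0.14 and the chaperone bar from 0.19 to 0.13, while the beta and lid bars end below 0.

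Ribosomal protein genes, which are also short, abundant and built into a large complex, gave a scale for these differences. All 77 cytosolic ones were higher for PKP2, by a median difference of 0.24, and 0.07 with the trend removed. Of 76 mitochondrial ones 68 were higher, with a median of 0.13, and 0.01 with the trend removed. Among all expressed genes 49.7% were higher. After removal of the trend 59 of the 77 and 43 of the 76 were higher, against 45.7% of expressed genes with a length. The proteasome genes as a whole had medians of 0.13 and 0.04, and no test of the difference between these sets is possible with 1 library each.

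Levels of different genes were compared per kb of transcript, since longer transcripts give more counts. By the longest protein-coding transcript, the class medians were highest for the beta subunits, at 166.3 CPM per kb in the PKP2 library and 148.8 in the vector library. The base followed at 102.9 for PKP2 and 90.6 for vector, the alpha subunits at 98.2 for PKP2 and 84.2 for vector, the lid at 63.5 for PKP2 and 59.9 for vector and the other activators and inhibitor at 48.4 for PKP2 and 46.4 for vector. The chaperones were at 25.8 CPM per kb for PKP2 and 22.5 for vector and the immunoproteasome class at 16.4 for PKP2 and 12.7 for vector. The order was the same in both libraries, and Spearman's rho of the 46 levels per kb between the libraries was 0.99. Subunits that occur in equal numbers in the particle varied in level, by 9.13-fold over the alpha and 6.501-fold over the beta subunits in the PKP2 library, but by only 3.04-fold and 2.02-fold per kb of coding sequence.

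PSMA5 and PSMB2 were the lowest of their rings per kb of the longest transcript, at 23.5 and 43.9 CPM per kb in the PKP2 library. Per kb of coding sequence PSMB2 had 307.2 CPM in the PKP2 library and 291.6 in the vector library, behind PSMB3 alone among the beta subunits, and PSMA4 had 367.8 for PKP2 and 334.6 for vector, the highest alpha subunit. On that scale the class medians were 246.2 CPM per coding kb in the PKP2 library and 209.8 in the vector library for the beta subunits, and 185.8 for PKP2 and 173.4 for vector for the alpha subunits. The other activators and inhibitor had 255.6 for PKP2 and 244.7 for vector, the lid 134.1 for PKP2 and 131.2 for vector, the base 133.3 for PKP2 and 118.3 for vector, the chaperones 61.7 for PKP2 and 63.8 for vector and the immunoproteasome 26.7 for PKP2 and 20.7 for vector. PSME3 had the highest level of all members, at 480.5 CPM per coding kb in the PKP2 library and 505.5 in the vector library, and PSMB9 the lowest, at 15.6 for PKP2 and 13.2 for vector.

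**Figure D4:**
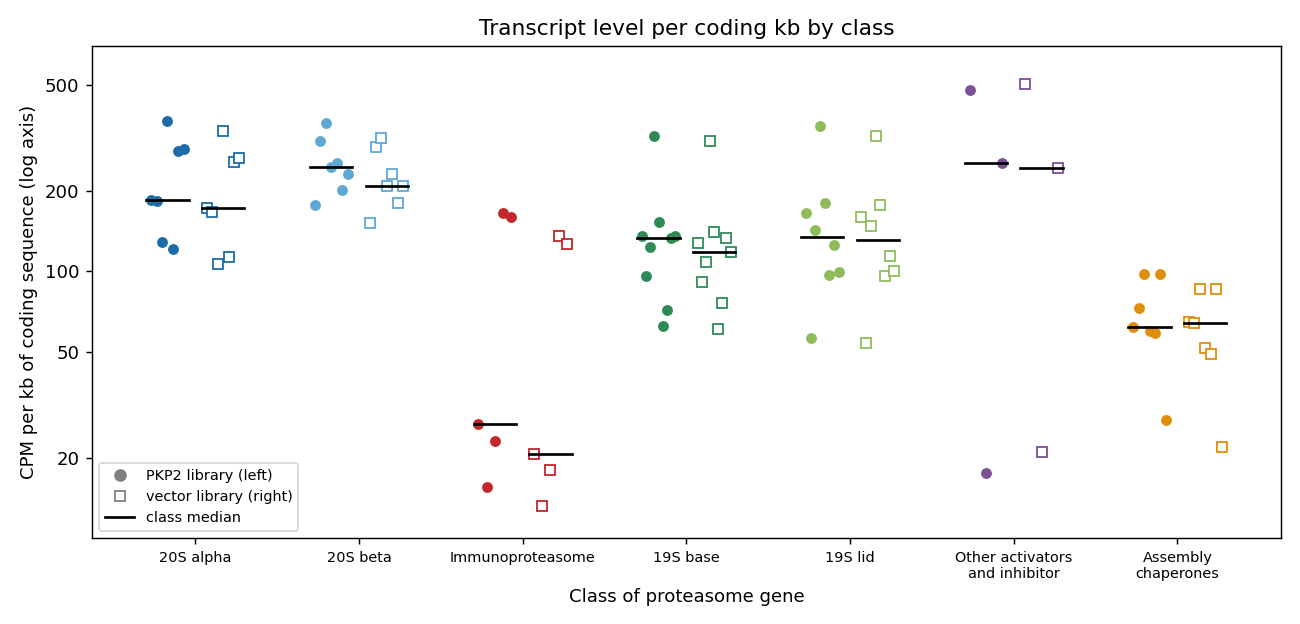
Levels are in CPM per kb of coding sequence on a log axis, with filled circles for the PKP2 library on the left of each class and open squares for the vector library on its right, and bars are class medians. PSMB8, PSMB9 and PSMB10 lie at 15.6 to 26.7 in the PKP2 library and 13.2 to 20.7 in the vector library, below the other members apart from PSME4 at 17.5 for PKP2 and 21.1 for vector, and PSME1 and PSME2 lie with the constitutive subunits.

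Genes that work with the proteasome were taken from lists chosen by function. Of 12 proteins that bind or complete the particle, 7 were higher and 5 lower in the PKP2 library, with a median of 0.06. Among all expressed genes 49.7% were higher and 50.3% lower. SEM1, the smallest lid subunit, was the 1 gene of the list past the 1.2-fold step, which 8.70% of all expressed genes passed higher and 11.0% lower. It had 52.2 CPM in the PKP2 library and 40.3 CPM in the vector library, a ratio of 1.30 (1.17 to 1.43). With the trend removed it lay at 0.40 on the log2 scale, by its longest protein-coding transcript of 2667 nucleotides. Its value by the principal transcript is not reported here. That choice may matter, since PSMG4 went from 0.34 to 0.12 with its principal transcript. ADRM1, the ubiquitin receptor of the base, had a ratio of 1.13 (1.07 to 1.19). UBE3C, a ubiquitin ligase that extends chains on stalled substrates, was 1.19-fold lower with 184.7 CPM in the PKP2 library and 220.3 CPM in the vector library, and ECPAS, which tethers the cap to the core, 1.17-fold lower with 148.9 CPM in the PKP2 library and 174.0 CPM in the vector library. The chaperone POMP and the deubiquitinase USP14 of the same list, named after their values were seen, lay at 0.11 and -0.09. After removal of the trend ADRM1 lay at -0.01, UBE3C at -0.18, ECPAS at -0.09, POMP at 0.08 and USP14 at 0.03.

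Of 14 ubiquitin genes and shuttle factors 8 were higher and 6 lower, with a median of 0.00, against 49.7% and 50.3% of all expressed genes. DDI2, the protease that activates NFE2L1, had 5.72 CPM in the PKP2 library and 7.68 CPM in the vector library, a ratio of 0.745 (0.563 to 0.972), on a fractional and therefore uncertain count. The shuttle UBQLN1 was 1.19-fold lower, with 265.8 CPM in the PKP2 library and 315.1 CPM in the vector library. UFD1, a cofactor of the unfolding ATPase VCP, had a ratio of 1.14 (1.05 to 1.23). After removal of the length and GC trend DDI2 lay at -0.18 on the log2 scale, UBQLN1 at -0.19 and UFD1 at 0.11. NFE2L1 itself was level, with 327.3 CPM in the PKP2 library and 326.5 CPM in the vector library, a difference of 0.00.

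Of 7 regulators of transcription, NFE2L1 included, 5 were higher and 2 lower in the PKP2 library, with a median of 0.10. The shares among all expressed genes were 49.7% higher and 50.3% lower. IRF1, an interferon-induced activator of immunoproteasome genes, had 31.7 CPM in the PKP2 library and 25.0 CPM in the vector library, a ratio of 1.27 (1.12 to 1.45) with a fractional count, and IRF9, which carries type I interferon signals to the ISRE, had 11.2 CPM in the PKP2 library and 8.94 CPM in the vector library, at 1.26 (1.01 to 1.57). NLRC5, the class I transactivator, had an interval of 0.882 to 1.37 around 1.10. Of 9 antigen processing genes 7 were higher, with a median of 0.08, against 49.7% of all expressed genes higher. HLA-B, which encodes a class I heavy chain, was the 1 past the 1.5-fold step, which 0.733% of all expressed genes passed higher. It had 20.6 CPM in the PKP2 library and 10.9 CPM in the vector library, at 1.88 (1.57 to 2.26). HLA-C, which also encodes a heavy chain, was closer to 1, at 1.22 (1.12 to 1.32). The trimming peptidase ERAP1 was 1.16-fold lower, with 35.5 CPM in the PKP2 library and 41.2 CPM in the vector library. All 3 had fractional counts. After removal of the length and GC trend HLA-B lay at 0.69 on the log2 scale, HLA-C at 0.11 and ERAP1 at -0.08. IRF1 then lay at 0.31, IRF9 at 0.17 and NLRC5 at 0.18.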

How the data were processed

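RNA of A549 cells was extracted with Trizol and libraries were made with an Illumina kit (TruSeq), per the labels' protocols, with 1 library for PKP2 overexpression and 1 for the vector. The deposited values are estimated counts per Entrez gene, called counts per the file headers and unscaled as their totals differ. Per the submitters' processing notes, the build was GRCh38.p12 and the tools RSEM 1.2.12, HISAT2 2.0.4 and Bowtie2. Their roles, the annotation and whether counting was stranded were not given in the sources used here. No column of another sample was used.

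CPM, ratios and differences in log2(CPM + 1) were computed in Python 3.11.15 with scipy 1.17.1. Intervals are exact 95% Clopper-Pearson intervals from counts rounded to whole numbers. They cover counting error only. Reads carry no molecular identifiers in these files, so reads copied from the same molecule cannot be told apart, and the intervals may be too narrow. An additive lowess trend on log2 length and GC content, span 0.3, was fitted to the 12670 expressed genes with a length (statsmodels 0.14.6) and took up 24.0% of the differences' variance. Lengths came from GENCODE release 29, and 16183 of 16399 IDs matched a symbol in RefSeq on GRCh38.p14. Coding length came from GENCODE, as no protein table was used. The calculation was tested on simulated data.

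Members and lists were chosen with earlier results of these data known. In full were given the immunoproteasome genes, PSMB5, PSMB6, PSMB7, PSMD14, PSME3, PSME4, PSMF1, the highest and lowest of each class and up to 4 genes of each related list. Other genes were named after their values were seen, and some genes of the related lists are not reported here. Alternatives were no filter, a floor of 5 CPM on the mean, pseudocounts of 0.1 and 5, median and trimmed mean scaling, the trend removed, fractional counts left out and other lengths.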

Additional observations from a re-analysis of the deposited data

How the results depend on the processing

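Pseudocounts, filters, scaling to the median or trimmed mean and leaving out the fractional count of PSMC2 kept every class value within its counting error, but counts past the 1.2-fold step moved with the pseudocount. With 0.1, 1 member, PSME4, passed it on the lower side, and with 5, 4 members instead of 6 passed it on the higher side. Removing the length and GC trend moved the results most. The values that follow are with the longest protein-coding transcript and then, chosen after seeing the data, with the principal transcript. Summed log2 differences became 0.017 and 0.022 for all members, 0.077 and 0.10 for alpha, 0.014 and 0.018 for beta and 0.14 and 0.15 for immunoproteasome genes. They became -0.0038 and 0.013 for the base, -0.016 and -0.0017 for the lid and, with the principal transcript, -0.10 for the other activators and inhibitor. The median of all members became 0.040 with the longest transcript, and that of the beta subunits -0.025 and -0.0061. Lower members numbered 19 and 16 instead of 6, and members past 1.2-fold higher 1 and 0 instead of 6. Signs turned in PSMA7 (-0.081 and -0.063), PSMB3 (-0.041 and -0.022), PSMB5 (-0.025 and -0.0061), PSMB6 (-0.057 and -0.042), PSMB7 (-0.029 and -0.010), PSMC4 (-0.084 and -0.065), PSMD8 (-0.027 and -0.019), PSMD2 (-0.034 and -0.020), PSMD3 (-0.075 and -0.058) and PSMD6 (-0.030 and -0.020). With the longest but not the principal transcript they also turned in PSMA6 (-0.00083), PSMB9 (-0.0053) and PSMC5 (-0.00042). The cause was not tested. From plain counts PSMB10 made up 8.94% of its pair in the PKP2 library and 7.78% in the vector library. By class means the immunoproteasome ranked 6, the chaperones 7, the alpha subunits 2 and the base 3 by level per kb. By coding length, which came from GENCODE because a planned version with RefSeq protein lengths was not run, the other activators and inhibitor ranked 1, the beta subunits 2 and the base 5. No paired analysis was possible because each group has 1 library, and none could be left out. Depth limits PSMB9 and PSMG4, with 147 and 181 counts in the vector library.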
